A study of Mus musculus with 20 samples.

Results

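The regions described here are the accessible chromatin sites that were found in most mouse embryonic stem cell lines carrying a mutant CTCF and that had no peak in the line carrying wild-type CTCF (WT). The peaks of all 10 genotypes were merged wherever they shared at least 1 bp. A merged region was taken when at least 7 of the 9 mutant lists had a peak in it and the WT list had none, and chromosome Y and chromosome 17 from 70 Mb on were left out. In all, 1604 of 220251 regions met this choice, which is 0.728% of them. Of these, 161 had a peak in all 9 mutant lists, 535 in 8 and 908 in 7. The sites were chosen by the presence and absence of peaks, so their number, their presence and their strength in the lists are given as a description with no test.

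Accessible chromatin was measured by Omni-ATAC-seq, in which a transposase cuts open DNA and tags the ends for sequencing. The cells were E14Tg2a, a mouse embryonic stem cell line of strain 129/Ola, kept without feeder cells in medium with leukemia inhibitory factor, CHIR99021 and PD0325901. Every group, WT included, carried an auxin-inducible degron on its own CTCF and received 500 µM indole-3-acetic acid, which degrades that protein, together with 1 µg/ml doxycycline, which switches on a Ctcf transgene, for 2 days. The transgenes encoded CTCF R339Q, R342C, S354F, K365T, R377C, R377H, Q418R, R448Q or H455R, or WT CTCF, with 2 samples of each and 20 in all. The design describes 10 derived lines, so a difference between genotypes cannot be told apart from a difference between lines. That the 2 samples of a genotype were separate cultures is not stated.

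CTCF binds DNA through a row of zinc fingers and, together with cohesin, holds chromatin loops in place. Where it is bound, nucleosomes are moved aside, and both the bound site and its flanks can become accessible. Enhancers and promoters are accessible as well, most of them through other proteins. From general knowledge of the protein and not from the labels, R339Q and R342C lie in the zinc finger numbered 3, S354F and K365T in 4, Q418R in 6, R448Q and H455R in 7, and R377C and R377H in the linker between fingers.

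Each genotype had 1 deposited peak list into which both samples had gone, so no spread between replicates could be computed and every interval below covers counting error over regions only. The mutant lists held from 121032 peaks in R339Q to 159957 in H455R, and the WT list held 171719. The fold value given for each peak is the authors', a ratio of the coverage at the peak to that expected. It was used to rank peaks within a list, and its range over the lists is given for named sites as listed, without reading a higher value in 1 list as more accessible chromatin than in another. The background coverage computed from the steps of these values, a relative measure of depth, was 3.49 in K365T to 5.45 in R448Q among the mutants and 5.96 in WT. The WT list was thus the longest and had the highest background coverage of the 10. Peak names carry 2 library codes, which were consecutive in 8 lists, 42 apart in K365T and 28 apart in WT. Of 20 naive pluripotency genes, 17 to 19 had a peak within 1 kb of an annotated end in the mutant lists and 18 in the WT list. Of 10 fibroblast genes it was 6 to 8 and 8, and of 12 trophoblast genes 8 to 11 and 11. Of 10 primitive endoderm genes it was 6 to 7 and 7, and of 12 neural genes 11 to 12 and 12. Peaks at gene ends thus did not set the naive pluripotency genes apart from the neural ones.

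No genome sequence was used, so the sequence of a site could be read only where it overlapped a promoter window, the 250 bases before and 50 after an annotated gene start (RefSeq, build GRCm38.p6). There 55 sites overlapped 59 windows of 56 genes. Each window was read whole, also where part of it lay outside the site. The first 3 windows printed belong to the strongest sites at protein-coding genes, and show how much the sequence differs from window to window. Capitals mark matches on either strand to the CTCF core CCNNNAGNNGGC, the GC box GGGCGG and the CCAAT box CCAAT. All are written 5′ to 3′ on the strand of the gene. Gm9, a gene annotated by number only, starts in chrX:37210992-37211291 on the minus strand, and its window holds CCAAT boxes and no GC box. Nckap5, which encodes a protein that binds microtubules, has chr1:126492878-126493177 on the minus strand. Nid1, which encodes nidogen-1 of the basement membrane, has chr13:13437352-13437651 on the plus strand.
Gm9: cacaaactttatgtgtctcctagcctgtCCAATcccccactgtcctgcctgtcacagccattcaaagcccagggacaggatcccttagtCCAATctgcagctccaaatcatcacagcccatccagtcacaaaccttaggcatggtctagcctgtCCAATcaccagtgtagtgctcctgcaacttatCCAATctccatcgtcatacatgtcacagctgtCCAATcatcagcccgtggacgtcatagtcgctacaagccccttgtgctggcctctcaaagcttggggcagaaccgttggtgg
Nckap5: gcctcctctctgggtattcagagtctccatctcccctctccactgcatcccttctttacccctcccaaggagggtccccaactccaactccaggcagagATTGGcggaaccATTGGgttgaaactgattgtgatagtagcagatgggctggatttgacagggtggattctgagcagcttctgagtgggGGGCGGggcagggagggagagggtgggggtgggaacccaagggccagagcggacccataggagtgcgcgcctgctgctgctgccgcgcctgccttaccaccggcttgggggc
Nid1: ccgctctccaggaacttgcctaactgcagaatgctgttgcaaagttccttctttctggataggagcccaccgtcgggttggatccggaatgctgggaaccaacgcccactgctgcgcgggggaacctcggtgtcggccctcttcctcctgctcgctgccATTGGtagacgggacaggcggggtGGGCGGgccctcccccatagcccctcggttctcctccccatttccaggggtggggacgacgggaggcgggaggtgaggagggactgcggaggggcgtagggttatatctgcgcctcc

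The next windows hold a match to the CTCF core, which 3 of the 59 windows did. Piwil1, which encodes a protein of the piRNA pathway of the germ line, has chr5:128735996-128736295 on the plus strand, and Rpl38, a gene for a protein of the large ribosomal subunit, has chr11:114668330-114668629 on the plus strand. The other window with this match belongs to the long noncoding RNA 4930447F24Rik, and there the match lies outside the site. In strength, defined below, the sites of Piwil1 and Rpl38 stood at 19.5 and 12.5.
Piwil1: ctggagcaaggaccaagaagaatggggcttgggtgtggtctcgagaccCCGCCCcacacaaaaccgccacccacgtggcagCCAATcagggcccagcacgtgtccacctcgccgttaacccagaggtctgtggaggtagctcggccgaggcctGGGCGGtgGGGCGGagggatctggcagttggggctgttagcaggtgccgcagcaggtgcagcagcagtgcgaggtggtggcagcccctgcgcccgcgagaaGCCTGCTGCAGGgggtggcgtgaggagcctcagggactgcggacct
Rpl38: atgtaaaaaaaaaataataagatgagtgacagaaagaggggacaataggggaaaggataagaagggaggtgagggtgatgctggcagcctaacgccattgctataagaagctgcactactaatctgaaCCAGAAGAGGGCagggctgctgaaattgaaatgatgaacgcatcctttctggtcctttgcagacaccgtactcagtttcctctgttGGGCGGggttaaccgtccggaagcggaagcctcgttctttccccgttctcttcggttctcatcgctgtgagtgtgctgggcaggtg

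Apart from Gm9, the protein-coding genes whose windows met a site present in all 9 mutant lists were Marveld1, which encodes a membrane protein with a MARVEL domain, at chr19:42147139-42147438 on the plus strand, and Fabp3, which encodes a fatty acid-binding protein of heart and muscle, at chr4:130308488-130308787 on the plus strand. Neither window holds any of the 3 motifs that capitals mark. In strength, defined below, the sites of Marveld1 and Fabp3 stood at 12.8 and 2.77, against a median of 40.4 for the sites of all 9 mutants.
Marveld1: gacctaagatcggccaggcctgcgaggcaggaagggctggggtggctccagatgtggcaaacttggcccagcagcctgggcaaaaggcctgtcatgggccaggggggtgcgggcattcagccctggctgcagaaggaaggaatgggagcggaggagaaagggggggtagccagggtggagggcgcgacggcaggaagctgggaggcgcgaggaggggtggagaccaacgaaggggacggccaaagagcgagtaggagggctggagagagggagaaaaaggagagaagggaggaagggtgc
Fabp3: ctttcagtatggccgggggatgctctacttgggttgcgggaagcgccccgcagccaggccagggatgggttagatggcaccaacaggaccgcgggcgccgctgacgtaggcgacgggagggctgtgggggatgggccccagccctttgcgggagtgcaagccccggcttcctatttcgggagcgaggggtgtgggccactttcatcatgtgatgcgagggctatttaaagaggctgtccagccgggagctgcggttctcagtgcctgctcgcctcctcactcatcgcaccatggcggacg

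The windows on these sites were poorer in CpG than those that stay accessible in most genotypes. The ratio of observed to expected CpG had a median of 0.305 over the 59 windows, against 0.725 over the 16279 windows that overlap a region of at least 7 mutant lists and WT. Over all 32353 windows it was 0.386. A ratio above 0.6, the usual mark of a CpG island, was found in 10 windows on the sites, or 16.9%, against 65.0% of the windows on regions shared with WT and 36.0% of all windows. The strength of the peaks, defined below, differs between these sets. Within the weakest, middle and strongest part of the windows by strength the median ratio was 0.47, 0.33 and 0.261 on the sites. It was 0.562, 0.437 and 0.583 on shared regions of the same parts. The ratio was thus lower on the sites in each part, with 19 or 20 windows in each. On the sites the strongest part ran from a strength of 30.8 to 68.2. It took in 3485 windows on shared regions, against 419 in the weakest and 414 in the middle part. Strength may therefore still differ between the sets within the strongest part.

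A GC box, the element that SP factors bind, was in 30.5% of the windows on the sites, in 61.3% of those on shared regions and in 35.9% of all windows. In the weakest, middle and strongest part it was in 40%, 30% and 21.1% of the windows on the sites. On shared regions of the same parts it was in 50.1%, 41.3% and 50.7%, with the same limit for the strongest part. The CTCF core was in 5.08%, 12.4% and 8.65% of the same sets, and the CCAAT box in 32.2%, 37.0% and 37.6%. On the sites the CTCF core rests on 3 windows and the GC box on 18. Matches were counted over whole windows, and 1 window of Oprl1 overlapped its site by only 12 bp. A match in a window therefore need not lie in the site. Another 7 short motifs were searched on both strands, and matches of different motifs may overlap. On the sites, on shared regions and in all windows, the shares were 11.9%, 24.4% and 15.0% for the ETS core CCGGAA, and 16.9%, 13.9% and 18.8% for the SOX core ACAAAG. They were 3.39%, 5.12% and 7.86% for the AP-1 site TGANTCA, 6.78%, 3.66% and 4.68% for the octamer part ATGCAAA, and 3.39%, 3.37% and 4.72% for the ESRRB motif AAGGTCA. For the YY1 core AAGATGG they were 8.47%, 6.33% and 6.38%. The NRF1 motif GCGCATG was in 0 of 59 windows on the sites, which allows up to 5.08%, in 6.3% of those on shared regions and in 3.91% of all. Each of these rests on at most 10 windows on the sites. Windows of 264 starts on regions found in WT and at most 2 mutants had a median CpG ratio of 0.242 and a GC box in 17.4%, so a low CpG ratio was found in both sets. Of the 59 windows, 32 belong to protein-coding genes, or 54.2%, against 80.7% of the windows on shared regions. The other 27 belong to long noncoding RNAs. Of 1005 microRNA hairpins, 243 were met by some region and 1 by a site, that of Mir5108 on chromosome 10. The sites are 0.728% of all regions, so this count is too small to read a difference from.

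The number of such sites was small beside what any other list lacked. When a mutant list took the place of WT, between 2189 regions (R377C, 0.994%) and 13398 regions (R339Q, 6.08%) were absent from that list and present in at least 7 of the other 9. H455R gave 3563 regions (1.62%), S354F 4686 (2.13%), R377H 5234 (2.38%) and R342C 5253 (2.39%). R448Q gave 8447 (3.84%), K365T 8508 (3.86%) and Q418R 11858 (5.38%). WT, with 1604, was the lowest of the 10. The lists differ in length, so the count was repeated with every list limited to its 121032 strongest peaks. WT then lacked 4615 regions, the fourth lowest number, after R377C with 3010, S354F with 3540 and R342C with 3959. The highest was R448Q with 7843. At equal length the WT number lay inside the range of the mutants, and as deposited it lay below it.

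**Figure D1:**
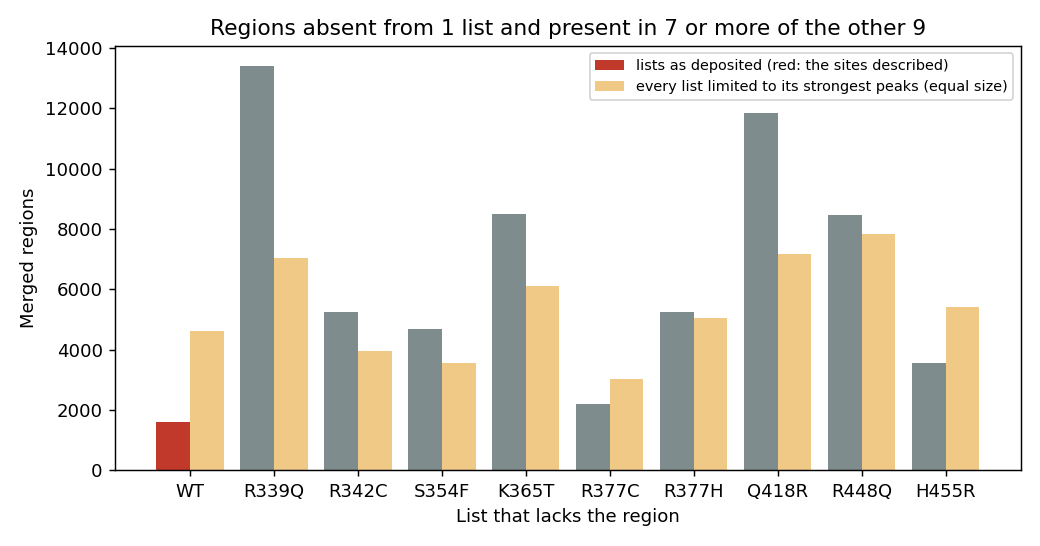
Number of merged regions (vertical axis) that each list on the horizontal axis lacked while at least 7 of the other 9 lists had them, for the lists as deposited (red for WT, grey for mutants) and with every list limited to its strongest 121032 peaks (yellow). WT is the lowest bar as deposited, at 1604, and the fourth lowest at equal length, at 4615.

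The more mutant lists held a region, the more rarely WT lacked it. WT had no peak in 78.2% of the regions of 1 mutant list, in 14.9% of those of 6, in 8.09% of those of 7, in 3.68% of those of 8 and in 0.2% of those of all 9. Just outside the choice stood 1522 regions with a peak in 6 mutant lists and none in WT.

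Strength was taken as the percentile of a peak by its fold value within its own list, averaged over the mutant lists that had the site, where 100 is the strongest peak. The sites were weak to moderate. Their median strength was 32.2 (95% interval 31.2 to 33.1) with quartiles of 21.3 and 42.6, against a median of 59.6 for the 104770 regions of at least 7 mutant lists and WT. Of the sites, 185 (11.5%) stood above a strength of 50, against 62.6% of the shared regions, and 351 stood below 20. No site exceeded 72.4.

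Among regions of at least 7 mutant lists, the share that WT lacked fell with strength. It was 5.04% at a strength of 0 to 10, 4.49% at 20 to 30, 2.23% at 40 to 50 and 0.195% at 60 to 70. Between 70 and 80 it was 0.0153%, from 2 sites, and above 80 there was none. The sites just inside the choice, in 7 lists, had a median strength of 30.5, and those just outside, in 6 lists, of 28.7. The sites in 8 lists had 33.5 and those in all 9 lists 40.4, while regions that all 9 mutants and WT had stood at 68.4. Even the sites that every mutant had were thus weaker in the median than the regions of all 9 mutants and WT. Their median was above that of regions of WT and 7 mutants (33.4) or 8 mutants (38.8).

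**Figure D2:**
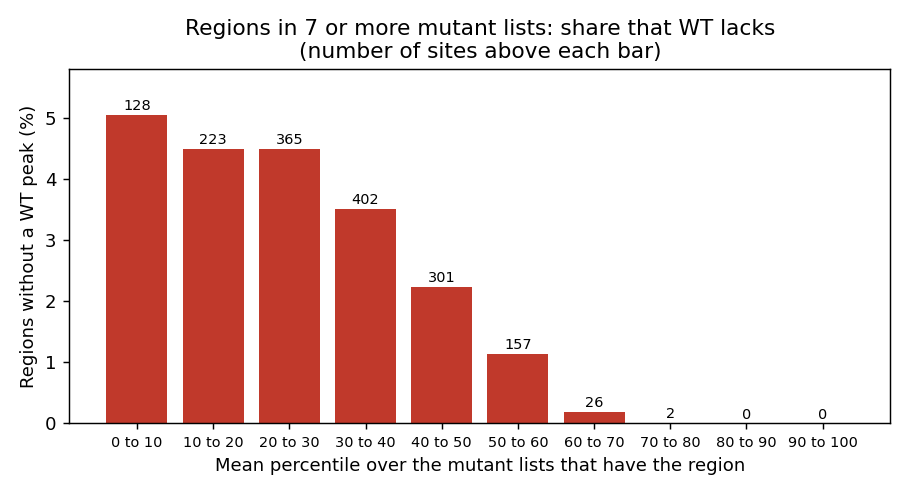
Share of the regions of at least 7 mutant lists that had no WT peak (vertical axis, percent), by the mean percentile over the mutant lists (horizontal axis), with the number of sites above each bar. The share is 5.04% in the weakest bin and 0.195% between 60 and 70, and 2 sites lie above 70.

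Of the 12 strongest sites present in all 9 mutants, 8 lay inside a gene and 4 between genes. The strongest of all was in Gatb, which encodes a subunit of the mitochondrial glutamyl-tRNA amidotransferase, at chr3:85637963-85638906 (mm10). Its fold value ran from 5.79 in K365T to 10.0 in R448Q with a median of 7.44, and its percentile from 58.8 to 83.3. The nearest WT peak was 4.58 kb away. The site in Rasa3, which encodes a GTPase-activating protein of Ras and Rap, at chr8:13587400-13588190, had fold values of 6.11 in S354F to 11 in R448Q and a median of 6.67. In every mutant list both sites stood at the 58.8th percentile or higher. Both were picked for a peak in all 9 lists and a high mean percentile, so this follows in part from the choice.

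The site at the start of Gm9, chrX:37210901-37211753, was less even. Its fold value was 17.8 in R448Q, at the 97.6th percentile, with a median of 6.15 and a lowest value of 4.77 in H455R, at the 48.2nd percentile. The intergenic site at chr15:74120540-74121382, whose nearest protein-coding gene is Gm6569, varied more still in percentile, from 10.3 in H455R to 89.2 in R377H, with fold values of 3.00 and 11.2 there and a median of 7.13. The nearest WT peak lay 31.5 kb from it.

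In Iqschfp, at chr3:68619137-68619537, the fold value ran from 5.03 in Q418R to 8.26 in K365T, with a median of 6.53. In Ncald, which encodes the calcium sensor neurocalcin delta, at chr15:37642188-37642732, it ran from 4.26 in S354F to 11.8 in R448Q, with a median of 6.36. In Snx29, a sorting nexin gene, at chr16:11431505-11431804, it ran from 4.44 in R339Q to 8.0 in R342C. Ncald thus spanned the 36.5th to the 88.7th percentile, and Snx29 the 43.1st to the 75.1st.

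The remaining ones were in Cspg4b (chr13:113369166-113369534, fold 4.26 to 12.1), in Hapln3, a gene for a link protein of hyaluronan and proteoglycans (chr7:79121666-79122847, 4.61 to 7.48), and outside genes. Outside genes they lay nearest to A430005L14Rik (chr4:153772833-153773354, 4.76 to 9.0), to the tetraspanin gene Tspan17 (chr13:54851129-54851534, 4.19 to 8.87) and to Unc5cl (chr17:48579809-48580385, 3.64 to 9.41).

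**Figure D3:**
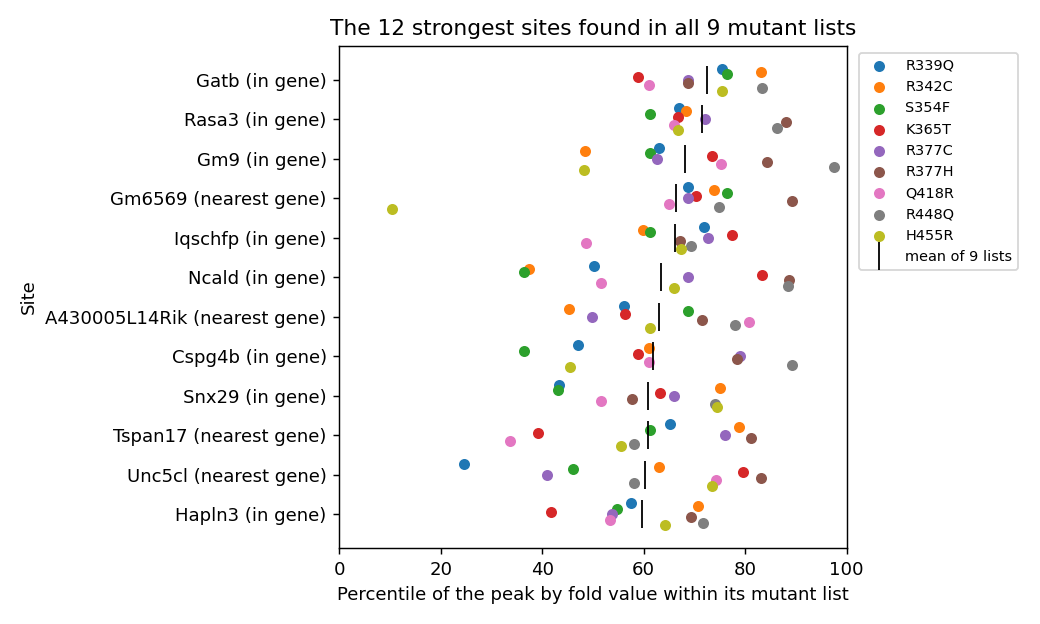
Percentile by fold value within each mutant list (horizontal axis, 0 to 100) for the 12 strongest sites present in all 9 mutant lists (rows), with 1 point per mutant and a bar for the mean. Gatb and Rasa3 lie at the 58.8th percentile or higher in every list, while Gm6569 has 1 point, H455R, at 10.3.

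The sites were not spread evenly over the mutants. R377C had a peak in 94.5% of them, R377H in 92.3%, R448Q in 91.0% and R342C in 89.0%. S354F had 86.2%, H455R 84.9%, R339Q 78.9%, K365T 73.0% and Q418R 63.7% (95% interval 61.2 to 66.0). R377C and R377H, which change the same residue, were the most complete, and Q418R was the least. Of shared regions with the strength mix of the sites, R377C had 98.1%, R377H 94.3%, R448Q 90.8% and R342C 94.5%. S354F had 95.9%, H455R 96.6%, R339Q 83.9%, K365T 90.5% and Q418R 86.3%. Most sites are in 7 mutant lists and most shared regions in all 9, so lower shares of the sites follow from the choice itself, and nothing is read from the gaps.

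Among sites that 8 mutants had, Q418R was the missing one for 174 and K365T for 104. K365T and Q418R together were missing for 131 of the sites that 7 mutants had, and R339Q and Q418R for 68. R377C and R377H were the missing pair for 2, as were R342C and R377H, and R342C and R448Q. R377C and R377H also lacked the fewest sites, 88 and 124, so nothing is read from the low number of this pair. R339Q and Q418R had the shortest lists, and K365T had the lowest background coverage and, with WT, library codes that were not consecutive. The part of these in the shares was not tested.

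The strongest site missing from each mutant shows what single mutants lacked. Cacna2d3, which encodes an auxiliary subunit of calcium channels, had a site at chr14:29410957-29411312 that R339Q and R342C lacked, and the others had fold values of 4.06 in H455R to 12 in K365T with a median of 5.97. The intergenic site 2.88 kb from Mmp17, a gene for a membrane-bound matrix metalloproteinase, at chr5:129613984-129614400, was missing from Q418R and R448Q and ran from 3.79 in K365T to 10.1 in R342C. The site nearest to Plxna2, a semaphorin receptor gene, lay 585 kb from it at chr1:194033897-194034888, was missing from H455R and reached 13.8 in R448Q. R339Q and R342C, which lacked the Cacna2d3 site, lie in the same finger, and so do R448Q and H455R, of which only R448Q lacked the Mmp17 site.

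S354F and K365T lacked a site at chr8:89255279-89256007, 211 kb from the transcription factor gene Sall1, where the fold value was 4.44 in R339Q to 10.2 in H455R. K365T alone lacked one 6.92 kb from Map4, which encodes a microtubule-associated protein, at chr9:109922587-109922920 (5.03 to 7.25). R377C and H455R lacked one in Synj2, an inositol phosphatase gene, at chr17:6016385-6016778 (4.31 to 8.95). R377H alone lacked one in Hs2st1, a heparan sulfate sulfotransferase gene, at chr3:144555157-144555494 (3.92 to 7.66).

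Within its own list, R448Q placed 37 of its sites in the strongest 20% of its list and R377H 32, while each of the other 7 mutants placed at most 10 and R339Q none. R448Q also had the highest background coverage among the mutants.

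Fewer of the sites lay at gene ends, and more between genes, than of the regions shared with WT. Within 1 kb of either end of a protein-coding gene were 108 of them (6.73%, interval 5.56 to 8.07), 721 (45.0%) were elsewhere in such a gene and 775 (48.3%, 45.8 to 50.8) were intergenic. Of the regions that WT and at least 7 mutants had, 16.7% were at gene ends, 44.9% in gene bodies and 38.4% intergenic. With the strength mix of the sites these shares were 12.3%, 50.6% and 37.2%. Of all regions, 10.9% were at gene ends and 39.7% intergenic, or 7.94% and 41.0% with the strength mix of the sites. The gene-end share of all regions at like strength thus lay inside the interval of the sites, while their intergenic share lay below it.

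Regions of 6 mutant lists without WT had 4.66% at gene ends and 46.9% intergenic. The intergenic share lay inside the interval of the sites and the gene-end share below it. Regions of WT and at most 2 mutants, the opposite pattern, had a like share at gene ends, 5.92%, but 36.1% intergenic and 58.0% in gene bodies. At the strength of the sites these were 4.48%, 40.5% and 55.0%, for those of them with a mutant peak. The 9285 regions found in WT alone have no strength. They are left out of the shares at like strength, also among all regions. The intergenic share of the sites, with its interval, stood above that of this opposite set. The median distance to the nearest gene end was 21.7 kb for the sites and 14.4 kb for shared regions (13.1 kb at like strength). It was 22.2 kb for regions of 6 mutant lists without WT. For regions of WT and at most 2 mutants it was 18.2 kb (22.4 kb at like strength).

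**Figure D4:**
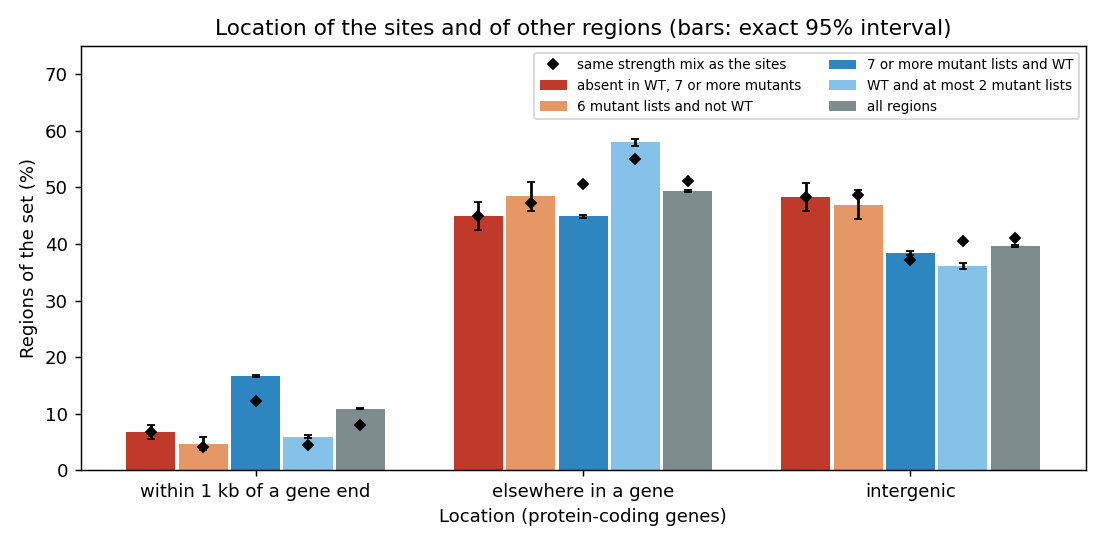
Share of each set of regions (vertical axis, percent) within 1 kb of an end of a protein-coding gene, elsewhere in such a gene, or intergenic, with exact 95% intervals over regions. Diamonds give the share with the strength mix of the sites, without the regions found in WT alone, which have no strength. The sites have 6.73% at gene ends and 48.3% between genes, against 16.7% and 38.4% of regions shared with WT.

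Art4, an ADP-ribosyltransferase gene of the red blood cell surface, had one at chr6:136848812-136849349, with fold values of 4.34 in R342C to 6.84 in R448Q and none in R377C and Q418R. Tnni2, which encodes troponin I of fast skeletal muscle, had one at chr7:142443558-142443884, with 4.11 in R342C to 7.46 in R377C and none in K365T. Ptprb, a receptor phosphatase gene of the vascular endothelium, had one at chr10:116388805-116389210, with 3.89 in S354F to 7.89 in R377H and none in K365T and Q418R. The nearest WT peak was 2.89 kb from the Art4 site, 15.9 kb from that of Tnni2 and 5.13 kb from that of Ptprb.

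Acss3, a gene for a mitochondrial acyl-CoA synthetase, had a site at chr10:107123265-107123813 that lay 148 kb from any WT peak. Its fold value was 10.2 in R448Q, against a median of 4.50 and a lowest value of 3.64 in R339Q, and H455R had none. The odorant receptor gene Olfr1260 had one at chr2:89978075-89978638 with fold values of 3.55 to 5.92. Nid1, whose window is printed above, had 4.14 to 6.71 and lacked a peak in R339Q and K365T. Gpr55, a receptor gene for lysophosphatidylinositol, and Vwa5a had sites at 0.646 kb and 0.267 kb from a WT peak, so there the WT list had an accessible region next to the site.

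Genes held 970 of the sites in all, and 806 lay in protein-coding ones. The 897 genes that held a site mostly held 1, 54 held at least 2 and 13 at least 3. Asic2, an acid-sensing ion channel gene on chromosome 11, held 4 sites among its 67 regions, and Dlgap2, a gene for a scaffold protein of the postsynapse on chromosome 8, held 4 among 54. Aox2, an aldehyde oxidase gene on chromosome 1, held 3 among 18, which is 16.7% of its regions. Grip1 and Tiam1 held 3 each among 75 and 86 regions. Asic2 and Dlgap2 are long genes, of 1090 kb and 758 kb, while Aox2 spans 101 kb. These genes were picked by their number of sites, and no like count for another set of regions is given.

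The sites were 492 bp wide in the median (478 to 503), and their peaks 297 bp. Shared regions were 716 bp wide, and 590 bp at like strength. Their peaks were 477 bp wide, and 368 bp at like strength. Regions of WT and at most 2 mutants were 276 bp wide and their peaks 240 bp. A merged region widens with the number of peaks merged, so the widths of single peaks compare more closely. The widest site, 1720 bp, was in the noncoding gene Gm35021 at chr8:35723337-35725056 and was missing from R339Q and Q418R. The site in Ldhd, a D-lactate dehydrogenase gene, spanned 1656 bp at chr8:111627712-111629367 with a strength of 1.51, so a wide site could be among the weakest. Sites near Lrpap1 (1533 bp, strength 65.3), near Gm39147 (1530 bp) and in Zmat5 (1506 bp, in all 9 mutants) came next.

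The nearest WT peak lay 2775 bp from a site in the median (2561 to 3104), with quartiles of 974 and 7470 bp. For 205 sites (12.8%) it lay within 500 bp, and for 310 (19.3%) beyond 10 kb. Shared regions had their next WT peak at 2325 bp, or 1.51 kb at like strength, and 11.6% had none within 10 kb. For regions of 6 mutant lists without WT it was 2846 bp, and 19.3% had none within 10 kb, as among the sites. For regions of WT and at most 2 mutants it was 2032 bp, with 11.8% beyond 10 kb. At like strength their distance was 2.81 kb, close to that of the sites. The sites with a WT peak within 500 bp had a median strength of 21.3, those with none within 500 bp 33.5 and those with none within 10 kb 40.1. Sites close to a WT peak were thus weaker in the median, though not each of them. Those in Etv5 (0.162 kb away) and Hoxa3 (0.101 kb) stood at strengths of 10.2 and 10.3, that in Smarca4 (0.170 kb) at 29.1, and those near Chp2 (0.200 kb) and in Vwa5a (0.267 kb) at 46.1 and 45.0.

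Accessible regions next to the sites had much the same rank in WT as in the mutants. Of the 80455 regions present in all 10 lists, 1969 lay within 10 kb of a site. Ranked from 0 to 100 within each list over that same set, they had a mean rank of 45.0 (R448Q) to 45.9 (K365T) in the mutants and 46.2 in WT. Within 50 kb, where 8885 regions lay, the mean rank was 47.5 to 47.9 in the mutants and 47.4 in WT. Without chromosomes 1, 8 and 11, which are described next, the mean rank was 45.0 to 46.4 in the mutants and 47.0 in WT at the shorter distance, and 47.4 to 48.0 in the mutants and 47.6 in WT at the longer one. The order of WT by mean rank at 50 kb thus changed without these chromosomes, but the mean over all such regions changed too. Set against that mean in its own list, WT differed by -2.6 at 50 kb, and the mutants by -2.5 to -2.1. Without the 3 chromosomes it was -2.9 in WT and -2.7 to -2.3 in the mutants. At 10 kb, with all chromosomes, it was -3.8 in WT and -5.0 to -4.1 in the mutants.

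Chromosomes 1, 8 and 11 held more of the sites than of all regions. Chromosome 1 held 168 sites (10.5%, against 7.1% of regions), chromosome 8 held 138 (8.6%, against 5.62%) and chromosome 11 held 173 (10.8%, against 7.47%). Together they held 479 sites, or 29.9% (27.6 to 32.2), against 20.2% of regions. Of their regions 1.08% were sites, and of the regions of all other chromosomes 0.64%. The lowest ratio of the shares was on chromosome 15, at 0.662, and on chromosome 6, at 0.675. Among the 161 sites of all 9 mutants, 48 (29.8%) were on these 3 chromosomes.

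The lists themselves differed in how many of their peaks were on these chromosomes. On chromosome 1 the share of peaks was 8.12% in R448Q and 7.62% in K365T, against 6.54% in WT. On chromosome 8 it was 6.11% in H455R and 6.0% in R448Q, against 4.99% in WT, the lowest of the 10. On chromosome 11 it was 8.61% in R377H and 8.02% in K365T, against 7.16% in WT. Whether the number of copies of these chromosomes differed between the lines was not tested. These mutants also had a larger share of the sites there: K365T had 85.1% of the sites on chromosome 1 and 69.8% of those outside the 3 chromosomes, R448Q 95.2% and 89.6%, and H455R 91.3% on chromosome 8 and 85.2% outside. Without the 3 chromosomes 1125 sites remained, of which 6.31% were at gene ends and 49.6% intergenic, within the intervals given above.

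**Figure D5:**
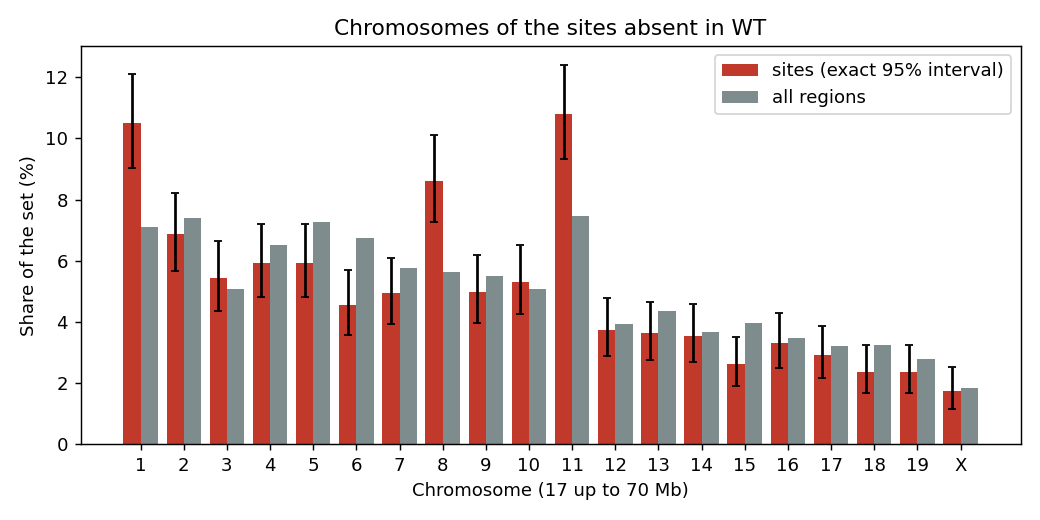
Share of the sites (red, with exact 95% intervals over sites) and of all regions (grey) on each chromosome (horizontal axis; vertical axis in percent). Chromosomes 1, 8 and 11 hold 10.5%, 8.6% and 10.8% of the sites, above their shares of all regions.

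Of 527 windows of 5 Mb along the chromosomes, 82 held no site and the median was 2.0 sites. The highest number was 14, at 10 to 15 Mb of chromosome 8, where 1.89% of 741 regions were sites. Among the windows with most sites the highest share was 2.44%, at 190 to 195 Mb of chromosome 1, against 0.728% of all regions. With neighbours at most 50 kb apart, 106 clusters held 219 sites (13.7%), 6 clusters had at least 3 sites and 1 had 4. No like count for another set of regions is given, so whether the sites cluster more than other regions was not tested. The cluster of 4 spanned 62.0 kb at chr8:25368585-25430601, around the noncoding genes Gm39146, Gm39147 and Gm30978. Mutants had 5 (K365T) to 11 (R339Q and R448Q) peaks in this stretch and WT 4, so WT did have peaks between the sites.

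A cluster of 3 sites spanned 6.92 kb inside Trim60, a gene of the tripartite motif family, at chr8:65004687-65011608. The mutants had 1 to 3 peaks there and WT none. Its middle site had a fold value of 2.55 in H455R to 6.11 in R377H and none in R339Q and R342C. Near Chp2 and in the noncoding gene Gm29903, at chr7:122229312-122244563, the mutants had 3 to 5 peaks around 3 sites and WT 2. Another 3 stretches held as many sites. In Aox2 the mutants had 4 to 8 peaks and WT 3, in Sergef 1 to 6 and WT none over 58.5 kb, and around Gpr155 and Wipf1 6 to 9 and WT 7. In Trim60 and Sergef the whole stretch was thus without WT peaks.

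Sites near genes of pathways known in embryonic stem cells were few. Of the 1604 sites, 38 (2.37%, 1.68 to 3.24) lay within 100 kb of one of 202 genes in 14 lists, against 3.47% of all regions, and 14 (0.873%) within 10 kb, against 1.16%. Of the 20 naive pluripotency genes none had a site within 10 kb, against 0.133% of all regions, and 6 sites (0.374%) lay within 100 kb, against 0.501%. The genes of CTCF and cohesin had none within 10 kb, against 0.121%, and 2 (0.125%) within 100 kb, against 0.359%. The trophoblast, fibroblast and two-cell-like lists had none within 100 kb, but only 0.214%, 0.0949% and 0.0136% of all regions lay there, so counts of 0 to a few sites are too small to read a difference from.

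The WNT pathway, which the CHIR99021 in the medium stimulates, had 4 sites within 10 kb, or 0.249% of the sites, against 0.217% of all regions. At Nkd1, which encodes an inhibitor of the pathway, a site at chr8:88597742-88598477 had fold values of 3.57 in K365T to 9.06 in R448Q and none in R339Q and R342C. The other Nkd1 site, at chr8:88538727-88539494, had 4.14 in R377H to 7.54 in H455R and none in K365T and Q418R. Tcf7, a transcription factor gene of the pathway, had 2.79 to 4.62 at chr11:52277000-52277436, and Axin2, a negative regulator, 2.40 to 3.58 at chr11:108943590-108944126. The Nkd1 sites stood above the median of the sites in strength (54.3 and 48.3), and those of Tcf7 (27.9) and Axin2 (7.04) were weaker.

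Of the imprinted genes, Kcnq1, a potassium channel gene, held sites at chr7:143355851-143356167 (fold 3.35 to 6.27) and at chr7:143403948-143404300 (3.06 to 4.87). The noncoding RNA Airn had one 2.23 kb away, in Mas1, at chr17:12862118-12862480 (3.23 to 7.30), and Plagl1, a zinc finger gene, one at chr10:13106740-13107111 with the low range of 2.07 to 2.77. Together they made 0.249% of the sites, against 0.134% of all regions, from 4 sites. Of the chromatin remodellers, Smarca4, the ATPase of the BAF complex, had a site in all 9 mutants at chr9:21677916-21678651 with 3.10 to 5.51, 0.170 kb from a WT peak. Chd2 had one at chr7:73452346-73452996 (3.26 to 5.50), which K365T lacked, and Arid1b one at chr17:5322538-5322963 (2.66 to 3.60).

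Other listed genes had 1 or 2 sites. Col4a1, which encodes a collagen of the basement membrane and stood for primitive endoderm, had one at chr8:11266098-11266714, with 3.12 in K365T to 8.63 in R448Q and none in Q418R. A site in Sox1ot, 9.10 kb from the neural gene Sox1, had 2.69 to 3.59 at chr8:12385745-12386420. Etv5, a target of ERK signalling, had 2.71 to 3.38 at chr16:22384222-22384773. Those of Sox1ot and Etv5 stood at strengths of 12.2 and 10.2, and the site of Col4a1 at 49.6.

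Among the Hox genes, a site 0.284 kb from Hoxb8 at chr11:96278821-96279117 had fold values of 3.76 to 5.54. One in Hoxa3 at chr6:52204432-52204765, which also met the promoter window of Hoxa5, had 2.64 to 3.27. With 3 sites within 10 kb, the Hox genes had 0.187% of the sites and 0.0658% of all regions. Of the odorant receptor genes, Olfr1378 had a site 7.13 kb away (2.65 to 5.72) beside that of Olfr1260, and of the vomeronasal receptors Vmn1r42 had one 8.53 kb away (3.56 to 5.05). The clustered protocadherin genes had none within 100 kb. Genes named Zfp had 17 sites within 10 kb (1.06%, against 1.25% of all regions), the strongest in Zscan18, 9.57 kb from Zfp329, with 4.19 to 7.96 in all 9 mutants, and in Zfp536, with 3.89 to 6.71. MicroRNA genes had 19 (1.18%, against 1.6%), the strongest in Klf7, 9.21 kb from Mir6899 (4.90 to 8.44), and 2.68 kb from Mir6401 (3.56 to 8.0). The list shares that were above those of all regions within 10 kb rest on 1 to 4 sites each.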

How the data were processed

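Per the submitters' processing notes, reads were handled with Trim Galore, Bowtie2, MACS2 and deepTools on the mouse build mm10. Their versions, any read shifting or removal of duplicates and the threshold for peaks are not stated. The authors had pooled both samples of a genotype in 1 list before it was deposited, with a position and 1 value per peak and no header. Judged by its values, the deposited number is the fold that MACS2 writes, a ratio of coverage to expected coverage. Background coverage was taken from the step that held more of the fold values than any other tried (tolerance 1.1e-05). That step held 28.9% to 33.8% of the values of a list, so most values did not lie on it.

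Samples were grouped by the genotype label, and replicate numbers were not used. Peaks were merged at 1 bp or more. The strongest peak of a list stood for it in a region. Shares at like strength were weighted over 10 strength classes of the sites. Regions found in WT alone have no strength and did not enter values at like strength. Genes and promoter windows came from RefSeq tables of GRCm38.p6, whose chromosomes are those of mm10, with 49943 genes, 21887 of them protein-coding. Gene ends are either end of a protein-coding gene, since strand was not used there. A site is named by the gene holding it, protein-coding first, or by the nearest protein-coding gene. Named were the 12 strongest sites of all 9 mutants, the 10 strongest at gene ends, the 5 widest, the strongest missing from each mutant, the 3 largest clusters, and sites within 10 kb of listed genes (the 2 strongest for 7 lists given by a name pattern). Intervals are exact binomial 95% intervals, for medians by order statistics. With 1 list per genotype no test was run. The sites, lists and rules were chosen with earlier results of these data known. Python 3.11.15, numpy 2.4.6, pandas 2.3.3, scipy 1.17.1 and matplotlib 3.10.9 were used, and merging, choice, distances and locations were checked on simulated peaks. Alternatives varied the merging overlap, the number of mutants, peak strength, list length, distance to WT, gene end window and list distance, and left out each mutant list or some chromosomes.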

Additional observations from a re-analysis of the deposited data

Results flagged for a closer look

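Chromosome 17 from 70 Mb on was left out of all counts above, yet it held regions of the same pattern. There 184 of 2173 regions, or 8.47% (95% interval 7.33 to 9.72), had a peak in at least 7 mutant lists and none in WT, against 0.728% of the regions counted above. This was a signal in data that no comparison used, and its cause was not tested.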

How the results depend on the processing

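No paired analysis was possible because each genotype has 1 list that combines both samples, and leaving out a replicate could not be run for the same reason. The number of sites was 3126 with at least 6 mutants, 696 with 8 and 161 with 9. It was 558 with the stronger 80% of each mutant list and 4615 with lists of equal length. With a mutant in the place of WT it was 13398 for R339Q, 5253 for R342C, 4686 for S354F, 8508 for K365T, 5234 for R377H, 11858 for Q418R, 8447 for R448Q and 3563 for H455R. Leaving out 1 mutant list and asking for 7 of 8 gave 770 (without R377C) to 1104 (without Q418R). The share at gene ends was 4.55% with a 500 bp window, 18.8% with 5 kb, 8.07% for sites of all 9 mutants and 3.87% for the sites above median strength. In gene bodies it was 38.1% with the 5 kb window and 41.0% for sites of all 9 mutants. The intergenic share was 43.1% with the 5 kb window, 50.9% for sites of all 9 mutants and 52.6% above median strength. Median strength was 33.5 without sites within 500 bp of a WT peak and 40.4 for sites of all 9 mutants. Median width was 567 bp for sites of all 9 mutants, 470 bp above median strength and 297 bp for single peaks. The nearest WT peak was at 2.3 kb for sites of all 9 mutants, 4.85 kb above median strength and 3.31 kb between centres. Listed genes lay within 10 kb of 0.873% of the sites. The cause of these changes was not tested.

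The share on chromosomes 1, 8 and 11 and the share found in Q418R stayed within their intervals under each alternative run. The number of sites has no interval, and it stayed within 1.5 times when merging asked for 100 bp (1604). It also did when sites within 500 bp of a WT peak (1399) or chromosomes 1, 8 and 11 (1125) were left out. The same held when all of chromosome 17 was kept (1788), with R377C in the place of WT (2189) and without the Q418R list (1104). Leaving out chromosomes 1, 8 and 11, and the width and distance subsets, were chosen after seeing the data. Most sites are weak peaks, with 351 under a strength of 20, and read depth per sample was not used, so how far depth limits these values was not tested.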
